A study of Mus musculus with 120 samples.

Results

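The levels of 10 immediate early genes were followed in 120 bulk RNA-seq libraries of the immunological niche (IN), a porous polycaprolactone scaffold placed under the skin of female mice, which host cells fill and which is then taken out for RNA. The members, Fos, Fosb, Jun, Junb, Atf3, Egr1, Egr2, Nr4a1, Ier2 and Dusp1, were chosen by name, as the entries of both count tables that carry these symbols, 10 of the 55491 genes that the tables share. NOD/ShiLtJ mice, a strain that develops autoimmune diabetes spontaneously, were followed until hyperglycemia (progressors, P) or without it (nonprogressors, NP), and NOR/LtJ mice, a related strain that stays free of diabetes, served as controls. The labels give no transgene and no agent for any group. By the paper, isoflurane anesthesia and the analgesic carprofen were given at implantation and at explantation. Every mouse bore a scaffold and explants were replaced, so each time point of a mouse is a different scaffold.

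Progressor libraries came from 10 mice, 5 in each of 2 sequencing batches, at 6 weeks of age, at 5, 3 and 1 weeks before onset and at onset, and from 8 of these mice (1 to 4, 6, 7, 9 and 10) at 7 weeks before onset, all in batch 2. Nonprogressor libraries came from 6 weeks of age (4 in batch 1, 7 in batch 2), 10 weeks (4), 14 weeks (4 in batch 1, 6 in batch 2), 18 weeks (4) and 22 weeks (4), with 2 more each at 31, 38 and 108 days after implantation. NOR libraries, all of batch 1, numbered 4 at 6 weeks, 5 at 10, 5 at 14, 4 at 18 and 5 at 22. The batches were read on different instruments and come from separate cohorts, except that mice 1 to 4, otherwise of batch 1, had their libraries of 7 weeks before onset in batch 2. In all other groups cohort and instrument cannot be told apart. Within progressors the approach of onset cannot be told apart from age, and in bulk tissue fewer cells of a type and less RNA per cell cannot be told apart either. By the paper, scaffolds were exchanged weekly from 6 weeks of age, in rotation over the implant sites. The number of earlier surgeries and the time a scaffold had been in place can therefore also differ between 6 weeks and later times. In every group neither can be told apart from age.

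Total counts were 4722396 to 56185434 in batch 1 and 29029239 to 43880986 in batch 2, and the lowest count of any member in any library was 15. In the library of NOR mouse 5 at 18 weeks, 85.7% of counts fell on an 18S ribosomal RNA gene. The comparison of strains and that of NOR ages are also given without it. So are the correlations over all libraries of single member pairs and of members with cell type markers. Unless said otherwise, other values that use NOR at 18 weeks include it, among them the correlations with single genes outside the list. Levels are CPM, each count relative to the library total, scaled by TMM over all libraries. The scaffold tissue carried fibroblast markers (29093 to 63325 CPM summed over 6 genes in progressors at 6 weeks) and macrophage markers (2057 to 2726 CPM over 6 genes).

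Immediate early genes are the first genes that a cell transcribes after a stimulus, by factors already in place and without new protein. Serum response factor with its ETS partners, which binds the CArG box, and CREB, which binds the cAMP response element (CRE), are the best known of these factors. Fos and Fosb pair with Jun or Junb to form AP-1, a dimer of basic leucine zipper (bZIP) proteins, and Atf3 belongs to the same superfamily. Egr1 and Egr2 are zinc finger factors, Nr4a1 is an orphan nuclear receptor, and Ier2 is a short nuclear protein. Dusp1 is a phosphatase that switches off MAP kinases, which act upstream of the class. Transcripts of this class are also known to rise while tissue is handled and dissociated. The paper reports that explants were frozen at once and later homogenized whole in lysis reagent. No handling times of single libraries were available to set beside the levels.

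The 4 promoters below belong to pairs of members that moved closely together across libraries, Fos with Dusp1 and Egr2 with Atf3. Each is the 200 bases before the RefSeq start site in GRCm38.p6, written 5′ to 3′ along the gene, at chr12:85473690-85473889 (+) for Fos, chr17:26508473-26508672 (-) for Dusp1, chr10:67537669-67537868 (+) for Egr2 and chr1:191183334-191183533 (-) for Atf3. Capitals mark matches, on either strand, to the CRE (TGACGTCA), to the CRE core (TGACG, which the whole CRE contains on both strands), to the TATA box (TATAAA) and to the CArG box.
Fos: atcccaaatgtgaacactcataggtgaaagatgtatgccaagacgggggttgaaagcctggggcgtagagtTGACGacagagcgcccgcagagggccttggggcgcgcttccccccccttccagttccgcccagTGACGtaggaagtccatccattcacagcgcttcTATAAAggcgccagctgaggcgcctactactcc
Dusp1: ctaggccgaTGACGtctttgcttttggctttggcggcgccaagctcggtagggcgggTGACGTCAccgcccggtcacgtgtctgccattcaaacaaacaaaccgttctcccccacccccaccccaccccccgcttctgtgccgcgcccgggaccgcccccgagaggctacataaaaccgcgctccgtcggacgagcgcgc
Egr2: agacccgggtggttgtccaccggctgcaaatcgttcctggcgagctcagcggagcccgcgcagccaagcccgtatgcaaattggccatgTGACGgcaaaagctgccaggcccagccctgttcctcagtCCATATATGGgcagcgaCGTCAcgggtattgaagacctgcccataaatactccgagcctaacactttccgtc
Atf3: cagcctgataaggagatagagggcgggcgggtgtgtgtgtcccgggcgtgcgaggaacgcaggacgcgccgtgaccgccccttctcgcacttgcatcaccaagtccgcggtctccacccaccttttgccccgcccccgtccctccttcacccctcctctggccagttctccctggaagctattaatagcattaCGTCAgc
Fos held 2 CRE cores and a TATA box, Dusp1 held 1 whole CRE and a further CRE core, Egr2 held a CArG box between 2 CRE cores, and Atf3 held 1 CRE core at its start. Over the 250 bases before the start, both strands searched, 17.8% of 32851 RefSeq promoters held a CRE core, 1.55% a whole CRE, 12.4% a TATA box, 1.47% a CArG box and 6.75% the AP-1 site TGANTCA. Of the 8 members with a window, all but Jun held a CRE core and none held TGANTCA. Egr1 and Ier2 had no window. These are letters in a window, and binding was not measured.

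Per kilobase of exon, the members spanned a wide range of levels. In batch 1 the median library held 123 CPM per kb of Junb, 106 of Atf3, 80.4 of Jun, 60.7 of Dusp1, 38.0 of Fos and 24.8 of Egr2. The other 4 were lower, at 14.0 CPM per kb for Ier2, 6.50 for Egr1, 4.87 for Nr4a1 and 2.41 for Fosb. In batch 2 Atf3 came first at 105 CPM per kb, ahead of Junb at 46.4, Dusp1 at 36.1 and Jun at 35.3.

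The members also differed in how far they scattered among mice of 1 group. With the mean of each group and batch removed, the SD of log2 CPM was 0.17 for Jun, and 20.8% of the 15910 genes with a mean of 1 CPM or more had a smaller one. The SD was 0.25 for Junb, 0.29 for Ier2, 0.30 for Egr2, 0.32 for Atf3, 0.33 for Fos and 0.39 for Dusp1. Egr1 (0.45), Nr4a1 (0.46) and Fosb (0.75) scattered most, and 90.1% of genes had a smaller SD than Fosb. In NOR mice at 10 weeks, for example, Fosb stood at 3.20 CPM in the lowest mouse, at a median of 5.96 CPM and at 46.7 CPM in the highest.

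**Figure D1:**
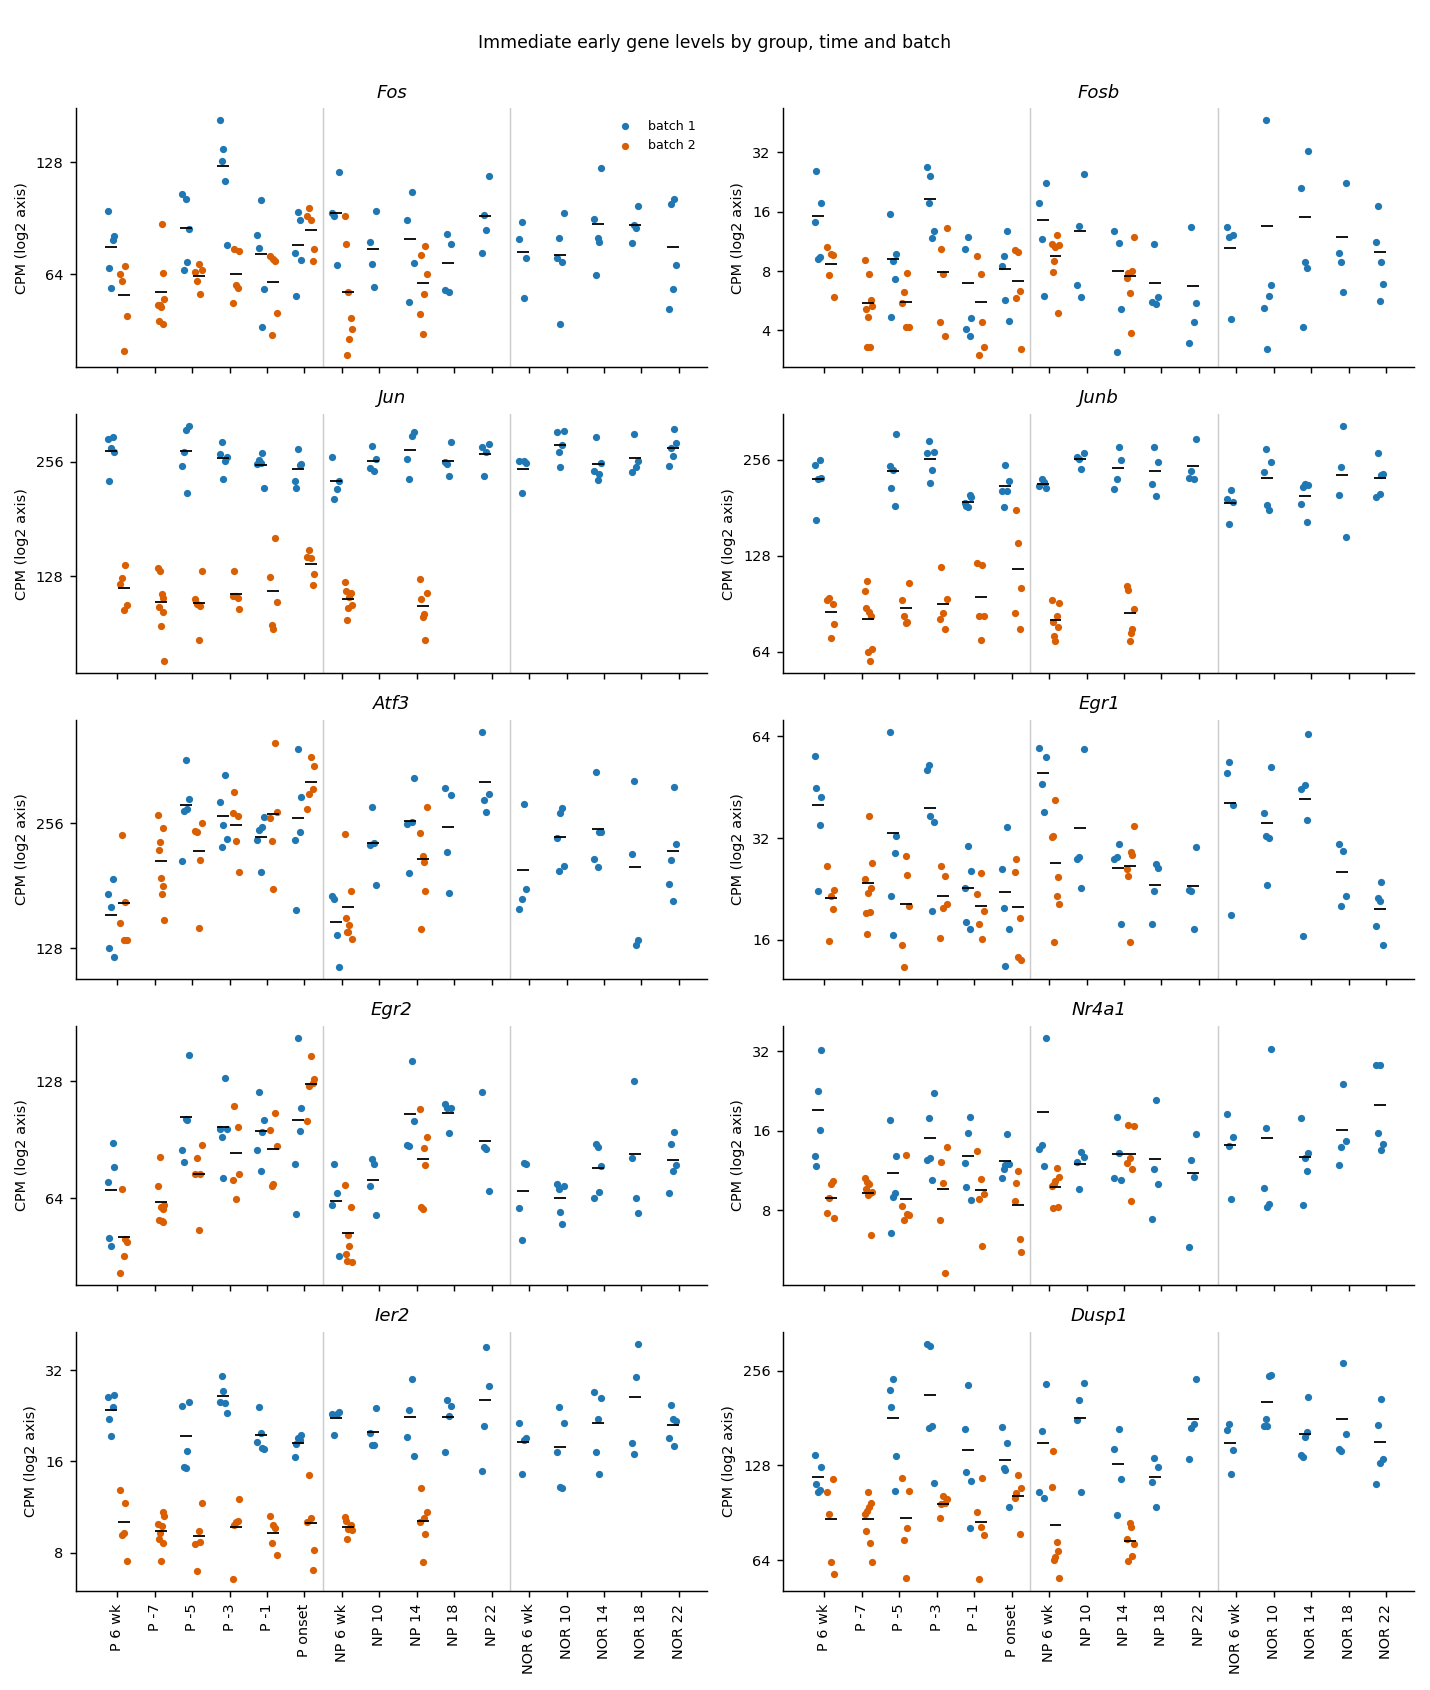
CPM (log2 axis) of each member in every progressor (P), nonprogressor (NP) and NOR library labelled by age or by time from onset, P times being weeks from onset, with blue points for batch 1, orange points for batch 2 and black bars for means. Jun separates by batch, with a median of 257 CPM in batch 1 and 113 CPM in batch 2. Junb (223 and 84.0 CPM) and Ier2 (21.4 and 9.71 CPM) differ likewise but overlap in some libraries. Egr2 and Atf3 of progressors are higher at onset than at 6 weeks in both batches.

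Across all 120 libraries the members did not move as 1 block. With group and batch means removed, Pearson r over the 45 pairs of members had a median of 0.263 and ran from -0.508 to 0.704, with 34 pairs above 0 and 11 below. A member and a gene outside the list had a median r of 0.0175, with the 5th percentile at -0.364 and the 95th at 0.423. In 38 of the 45 pairs the sign of r was the same in both batches. Libraries of 1 mouse share that mouse, and all share the scaling, so these r are a description and carry no p.

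Fos, the AP-1 subunit, led the first set of members. Its r with the phosphatase Dusp1 was 0.704 (Spearman rho 0.694), and each ranked first for the other among 15909 genes. For Fos, its relative Fosb ranked 2 (r = 0.577), Egr1 ranked 3 (0.556) and Ier2 ranked 5 (0.454). The r of Fos and Dusp1 was 0.779 in batch 1, 0.546 in batch 2 and 0.707 without the library dominated by 18S ribosomal RNA. Without that library r was 0.576 for Fos and Fosb, 0.561 for Fos and Egr1 and 0.455 for Fos and Ier2, and the median over the 45 pairs was 0.26.

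Jun, Junb, Egr2 and Atf3 formed the other set. Egr2 and Atf3 had r = 0.689 (rho 0.658), Jun and Junb 0.635 (rho 0.683) and Jun and Atf3 0.589 (rho 0.557). Without the library dominated by 18S ribosomal RNA these r were 0.679, 0.657 and 0.596. Many genes outside the list lay nearer, since Atf3 ranked only 51 for Egr2 and Egr2 only 372 for Atf3. The 6 pairs within this set had a median r of 0.543, the 15 pairs among Fos, Fosb, Egr1, Ier2, Nr4a1 and Dusp1 0.389, and the 24 pairs between the sets 0.0274. These sets were drawn after the values were seen, so the gap between the medians is a description.

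Atf3 ran against several other members. Its r was -0.508 with the receptor Nr4a1, -0.407 with Egr1 and -0.359 with Ier2, and -0.520, -0.425 and -0.327 without the library dominated by 18S ribosomal RNA. With Nr4a1 it was -0.609 in batch 1 and -0.302 in batch 2. With Dusp1 it was -0.144 in batch 1 and 0.508 in batch 2, so that pair had no shared sign.

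**Figure D2:**
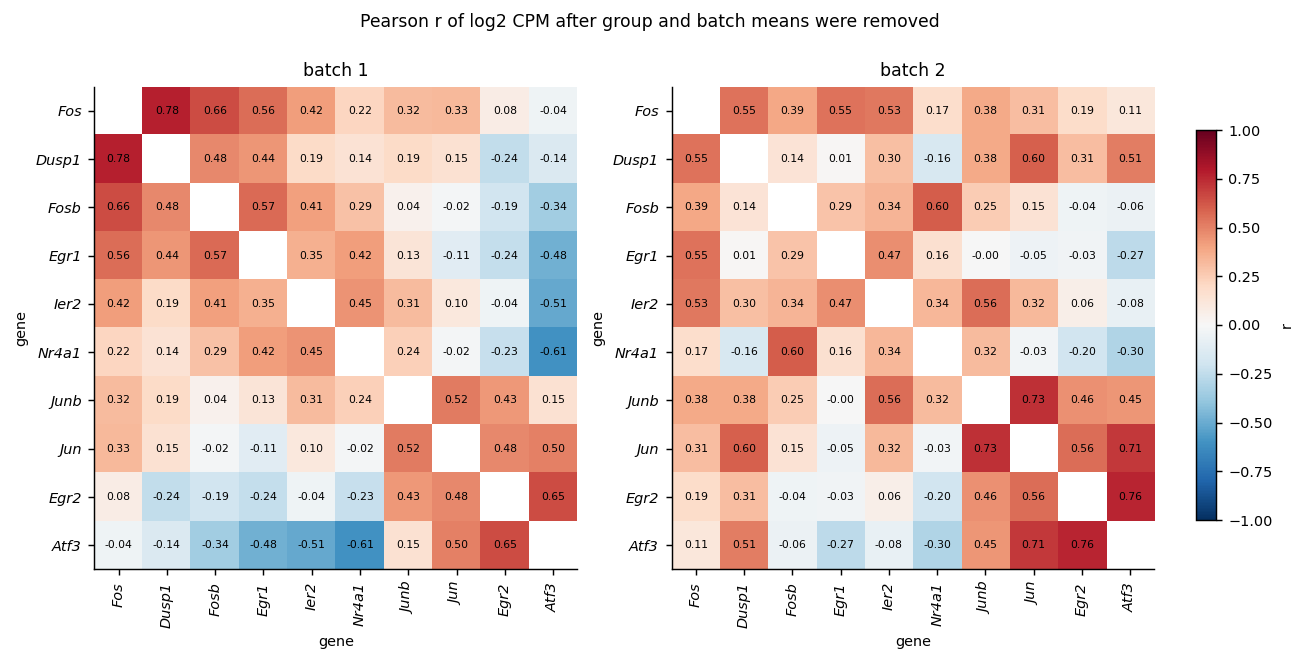
Pearson r between members in batch 1 (left) and batch 2 (right), computed on log2 CPM with group and batch means removed, red above 0 and blue below. The cells among Junb, Jun, Egr2 and Atf3 are red in both batches, Fos and Dusp1 reach 0.779 and 0.546, and Atf3 with Nr4a1 is blue in both.

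**Figure D3:**
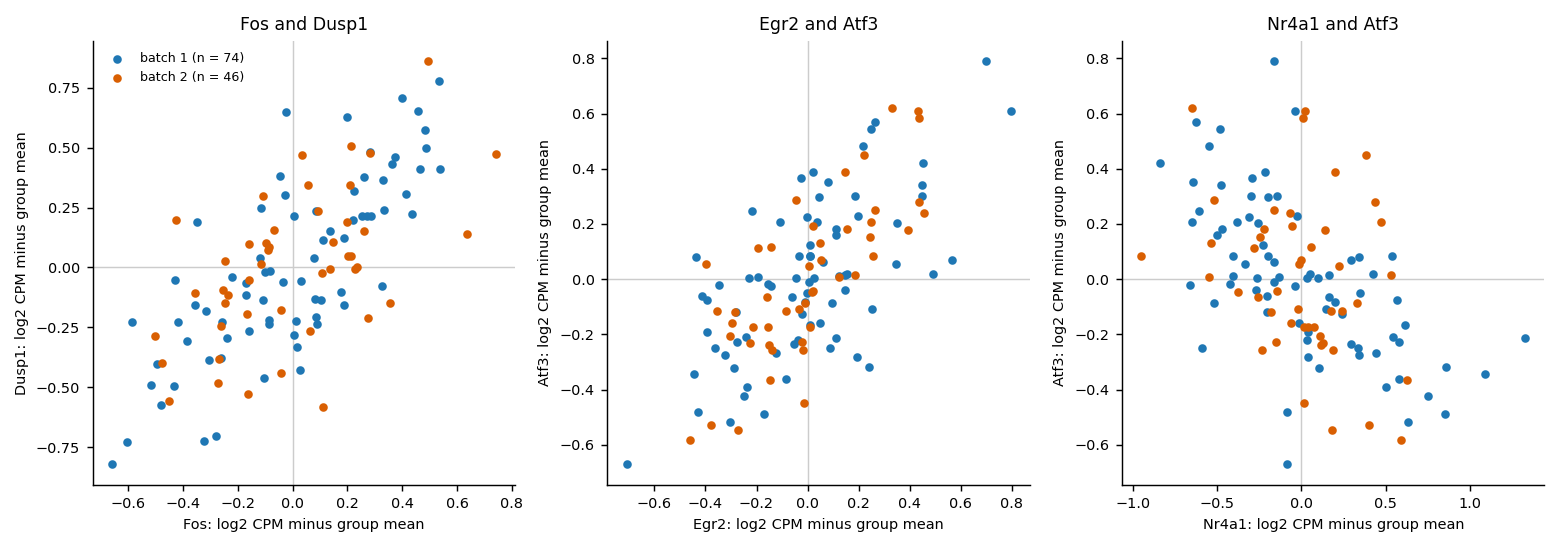
Log2 CPM minus the mean of each group and batch for 3 pairs of members, 1 point per library, blue for batch 1 and orange for batch 2. Points rise together for Fos and Dusp1 (r = 0.704) and for Egr2 and Atf3 (r = 0.689), and fall for Nr4a1 and Atf3 (r = -0.508).

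At 6 weeks of age each NOD mouse gave 1 library, so correlations could be tested over mice. The progressor and nonprogressor means were removed first, and the residuals were permuted over both groups, so these p are approximate. In batch 2 (12 mice), 4 of 45 pairs passed a two-sided permutation test of r after Benjamini-Hochberg adjustment, and 6 passed the test of rho. Fos and Dusp1 had r = 0.835 (permutation p = 0.00098, adjusted p = 0.0220) and rho = 0.769 (permutation p = 0.00491, adjusted p = 0.0368), and r was 0.756 without the 2 mice farthest from the median of Fos. Egr2 and Atf3 had r = 0.897 (permutation p = 0.00058, adjusted p = 0.0220), but rho was 0.580 (permutation p = 0.0517, adjusted p = 0.188) and r was 0.628 without the 2 farthest mice. Jun with Dusp1 had r = 0.780 (permutation p = 0.00324, adjusted p = 0.0479), rho = 0.839 (permutation p = 0.00116, adjusted p = 0.0261) and r = 0.778 without the 2 mice farthest from the median of Jun. Jun with Fos had r = 0.767 (permutation p = 0.00426, adjusted p = 0.0479), rho = 0.804 (permutation p = 0.00269, adjusted p = 0.0353) and r = 0.751 without the 2 mice farthest from the median of Fos. By rho but not by r, Jun with Atf3 (rho = 0.874, permutation p = 0.00044, adjusted p = 0.0198), Atf3 with Dusp1 (0.783, permutation p = 0.00384, adjusted p = 0.0353) and Ier2 with Dusp1 (0.783, permutation p = 0.00392, adjusted p = 0.0353) also passed, and their r were 0.683, 0.471 and 0.671.

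In batch 1 (9 mice), where all orders of the residuals were enumerated, no pair passed the permutation test of r or of rho after adjustment. By r, 6 pairs had an unadjusted permutation p under 0.05. Fos and Dusp1 had r = 0.762 (permutation p = 0.0169, adjusted p = 0.370), rho = 0.767 (permutation p = 0.0214) and r = 0.691 without the 2 farthest mice. Jun and Dusp1, which passed in batch 2, had r = -0.161 in batch 1 (permutation p = 0.681). The difference between the batches was not tested.

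The genes outside the list that lay closest to the mean of the 10 standardized members were Nr1h2 (r = 0.638), Rnf126 (0.633), Eif6 (0.630), Jund (0.627), Cebpb (0.614), Gpr108 (0.603), Nfkbib (0.602), Nacc1 (0.598), Ubxn1 (0.596) and Rnps1-ps (0.596), over 120 libraries. Jund and Cebpb are bZIP factors, and Nfkbib is an inhibitor of NF-κB. Single members had other neighbours. Fos lay nearest to Nfkbiz (0.455) and Socs3 (0.451), Dusp1 to Wee1 (0.492) and Nfkbiz (0.490), and Egr1 to its relative Egr3 (0.605) and to Gli2 (0.519). Fosb lay nearest to Rfx2 (0.648) and Klf2 (0.620), Nr4a1 to Ybx3 (0.698) and Cacnb1 (0.690), and Ier2 to Tcf3 (0.638) and Mcrip1 (0.616). In the other set, Jun lay nearest to Arf6 (0.756) and Cebpb (0.751), Junb to Eif6 (0.854) and Eif2b2 (0.789), Egr2 to Ado (0.803) and Slc35f6 (0.796), and Atf3 to Tspan14 (0.906) and Hk3 (0.903).

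Markers of the cell types in the tissue moved with some members. The mean of 6 fibroblast markers had r = 0.537 with Fosb (0.549 in batch 1, 0.518 in batch 2) and -0.465 with Egr2 (-0.555 and -0.275). The mean of 6 skeletal muscle markers had r = 0.504 with Nr4a1 (0.630 and 0.309), and their summed level ran from 14.5 to 70946 CPM over all libraries. Atf3 had r = -0.528 with 5 erythroid markers, -0.422 with 6 endothelial markers and 0.295 with 6 macrophage markers. The mean of the heat shock genes had r between -0.118 (Ier2) and 0.315 (Jun) with the members, and the total count between -0.278 (Nr4a1) and 0.249 (Atf3). Within batches the r with total count ran from -0.344 (Nr4a1) to 0.274 (Atf3) in batch 1 and from -0.119 (Egr1) to 0.462 (Jun) in batch 2. The mitochondrial mRNA share had r = -0.360 with Fosb (-0.422 in batch 1, -0.123 in batch 2). Without the library dominated by 18S ribosomal RNA the r with fibroblast markers was 0.521 for Fosb and -0.447 for Egr2, that of Nr4a1 with muscle markers was 0.507, and those of Atf3 were -0.538 with erythroid, -0.447 with endothelial and 0.257 with macrophage markers. The part of these measures in the covariation was not tested.

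Of single libraries, nonprogressor mouse 5 at 6 weeks had the highest mean of standardized members (1.13), with 91.7 CPM of Fos and 241 CPM of Atf3. Nonprogressor mouse 3 at 14 weeks in batch 1 (1.02), replicate 2 at 108 days after implantation (1), NOR mouse 5 at 14 weeks (0.944) and progressor mouse 7 at 3 weeks before onset (0.941) came next. The lowest were NOR mouse 3 at 10 weeks (-1.12), replicate 1 at 108 days (-1), progressor mouse 7 at 1 week before onset (-0.939) and, at onset, progressor mice 9 (-0.871) and 2 (-0.862). The group at 108 days has 2 libraries, so its values mirror each other. Progressor mouse 7 stood near both ends in different scaffolds.

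At onset, the members of progressors with the lowest p against 6 weeks were Egr2 and Atf3. Mice 1 to 5 (batch 1) held 70.4, 50.6, 48.0, 88.9 and 76.9 CPM of Egr2 at 6 weeks and 78.5, 58.4, 166, 95.3 and 109 CPM at onset. Mice 6 to 10 (batch 2) went from 41.0, 67.7, 45.3, 50.2 and 49.3 CPM to 101, 124, 149, 127 and 130 CPM. All 10 mice were higher at onset, and the groups overlapped in batch 1 but not in batch 2. The fitted difference was 0.95 on the log2 scale (SE 0.15, 1.93-fold, edgeR quasi-likelihood test, Benjamini-Hochberg adjusted p = 1.48e-06).

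Atf3, a stress-induced bZIP factor, stood at 172, 128, 161, 188 and 122 CPM at 6 weeks in mice 1 to 5 and at 233, 159, 385, 244 and 296 CPM at onset. Mice 6 to 10 went from 147, 240, 134, 165 and 134 CPM to 278, 302, 370, 310 and 350 CPM. Again all 10 mice were higher and the groups did not overlap in batch 2. The difference was 0.85 (SE 0.14, 1.81-fold, edgeR adjusted p = 2.12e-06). Within batch 1 it was 0.78 for Atf3 (edgeR adjusted p = 0.00741) and 0.60 for Egr2 (edgeR adjusted p = 0.0763), and within batch 2 it was 0.95 (edgeR adjusted p = 0.000199) and 1.29 (edgeR adjusted p = 2.92e-07). Fibroblast markers, summed, ran from 29093 to 63325 CPM at 6 weeks and from 4433 to 32981 CPM at onset, with 5 of 6 lower, while 2 of 6 macrophage markers passed, 1 higher and 1 lower. Markers of other cell types passed too. All these counts stand beside 39.6% of all genes tested that were called in either direction, with 19.6% called higher. Of 6 endothelial markers 4 were lower and 1 higher, of 5 erythroid markers 3 were lower, of 6 smooth muscle and pericyte markers 2 were lower, of 6 B cell markers 4 were higher and 1 lower, and all 4 hair follicle markers tested were higher. The part of these cell types in the differences was not tested.

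Egr1 went the other way. It stood at 56.0, 45.1, 22.3, 35.0 and 42.3 CPM at 6 weeks in mice 1 to 5 and at 26.0, 19.9, 13.4, 34.4 and 17.2 CPM at onset, and mice 6 to 10 went from 26.5, 15.9, 21.5, 19.8 and 22.6 CPM to 25.5, 27.8, 14.3, 18.6 and 13.9 CPM. It was lower at onset in 9 of 10 mice, with a log2 difference of -0.49 (SE 0.20, 0.71-fold, edgeR adjusted p = 0.0491). This call was lost without any 1 of 7 mice, with adjusted p up to 0.150 without mouse 5, and with the mouse as a block (-0.47, edgeR adjusted p = 0.0527). It was -0.85 within batch 1 (edgeR adjusted p = 0.0764) and -0.11 within batch 2 (edgeR adjusted p = 0.725). With Egr2 and Atf3 it made 3 members of 10 past the threshold at onset, against 39.6% of all 21279 genes tested, and 2 of 10 in the higher direction, against 19.6%, so the share was near the background.

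The other members did not pass at onset. Fosb had a log2 difference of -0.60 (edgeR adjusted p = 0.0681) and was lower in 8 of 10 mice, and Nr4a1 had -0.41 (edgeR adjusted p = 0.0837) and was lower in 7 of 10. Fos had 0.29 (edgeR adjusted p = 0.107). In batch 2 alone its 5 mice went from 64.0, 61.2, 39.8, 67.2 and 49.4 CPM to 91.9, 96.2, 89.3, 69.5 and 74.9 CPM, all higher (log2 difference 0.56, edgeR adjusted p = 0.00657), while in batch 1 it was higher in 2 of 5. The difference between the batches was not tested. Jun, Junb, Ier2 and Dusp1 had log2 differences between -0.20 and 0.19.

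**Figure D4:**
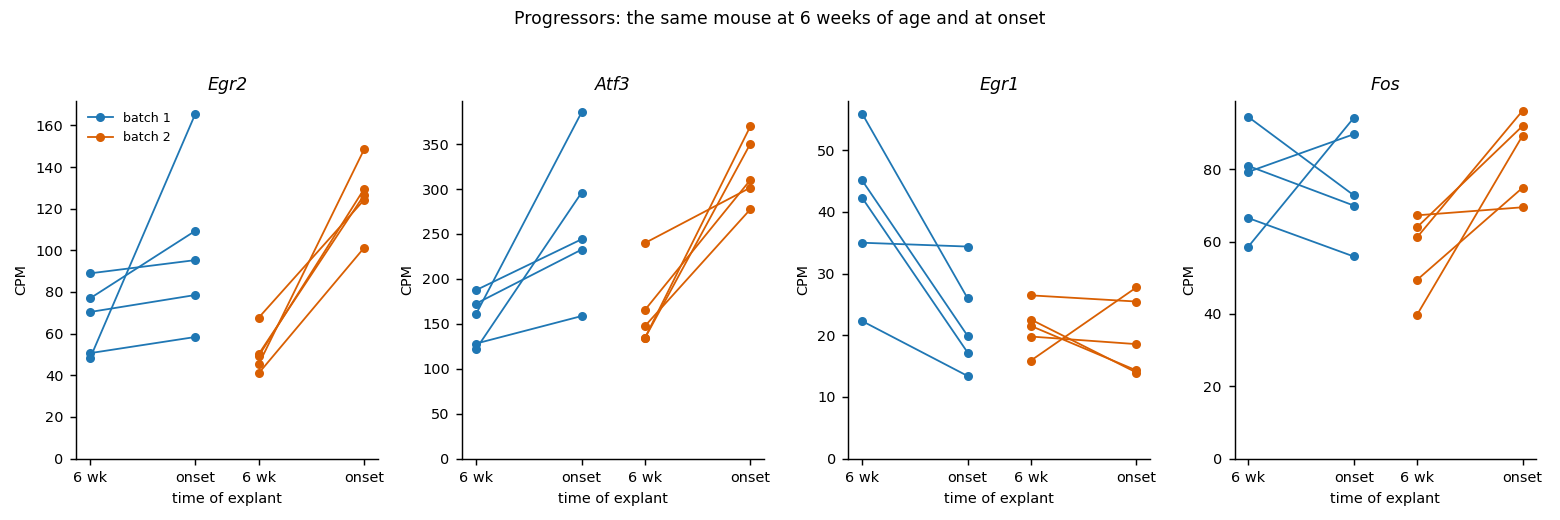
CPM of Egr2, Atf3, Egr1 and Fos in the same progressor mouse at 6 weeks of age and at onset, 1 line per mouse, blue for batch 1 and orange for batch 2. Egr2 and Atf3 are higher at onset in 10 of 10 mice, Egr1 is lower in 9 of 10, and Fos is higher in 5 of 5 mice of batch 2 and 2 of 5 of batch 1.

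Over all 6 progressor times, 4 of 10 members passed the edgeR test for any difference, against 35.6% of all genes. They were Egr2 (adjusted p = 1.85e-05), Atf3 (3.11e-05), Fosb (0.00669) and Fos (0.0283). The log2 difference from 6 weeks was 0.59, 0.63, 0.63 and 0.95 for Egr2 at 5, 3 and 1 weeks before onset and at onset, and 0.66, 0.72, 0.67 and 0.85 for Atf3. Fosb was -0.69, 0.11, -0.88 and -0.60 at those times, and Fos 0.16, 0.49, 0.03 and 0.29. The Fos value at 3 weeks before onset came with a batch split, since the 5 mice of batch 1 held 166, 129, 139, 114 and 76.7 CPM and those of batch 2 held 53.6, 74.8, 59.8, 58.7 and 73.7 CPM. Fos lost its call without any 1 of 6 mice, with adjusted p up to 0.110 without mouse 4, and Fosb lost it in batch 2 alone (edgeR adjusted p = 0.377).

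At 7 weeks before onset no member differed from 6 weeks past the threshold by the edgeR test, against 12.5% of genes, and 2 members had an unadjusted p under 0.05. These were Atf3, at 149 CPM in the lowest library, 205 at the median and 267 in the highest (log2 difference 0.38, edgeR adjusted p = 0.0848), and Fosb, at 3.27, 5.24 and 9.15 CPM (-0.73, edgeR adjusted p = 0.102). With the times from 5 weeks before onset to onset averaged and set against 7 weeks before, 1 member passed, against 3.89% of genes. This was Egr2, by 0.50 (SE 0.14, edgeR adjusted p = 0.0289), from 55.7, 60.3 and 81.5 CPM (lowest, median and highest) at 7 weeks before onset. The Egr2 call was lost without any 1 of 5 mice, with adjusted p up to 0.105 without mouse 9, and with the mouse as a block (0.63, edgeR adjusted p = 0.126).

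Egr2, Atf3 and Egr1 also changed with age in nonprogressors. Across the 5 ages, 3 of 10 members passed, against 34.7% of genes, namely Egr2 (edgeR adjusted p = 0.000318), Atf3 (0.00212) and Egr1 (0.0380). In batch 1, Atf3 stood at 171, 168, 138 and 115 CPM at 6 weeks and at 425, 291, 272 and 301 CPM at 22 weeks, with no overlap, and Egr1 stood at 59.0, 46.1, 38.3 and 55.5 CPM and then at 22.5, 22.4, 17.3 and 30.1 CPM, again with no overlap. The fitted log2 difference at 22 weeks was 0.97 for Atf3, -0.88 for Egr1 and 0.47 for Egr2, whose values of 61.6, 78.5, 65.8 and 45.3 CPM at 6 weeks overlapped those of 120, 86.5, 85.4 and 66.7 CPM at 22 weeks. The Egr1 call was lost without any 1 of 5 mice, with adjusted p up to 0.232 without mouse 1. The nonprogressor libraries of 22 weeks stood apart in what their counts fell on. The 7SL RNA genes took 16.6% to 38.4% of counts there, against 2.47% to 5.40% at 6 weeks in batch 1, mitochondrial mRNA took 1.69% to 6.12% against 1.35% to 1.6%, and 18S ribosomal RNA 1.18% to 12.6% against 0.134% to 0.417%. Their TMM factors were 0.499 to 0.816, against 1.04 to 1.08. Over the libraries of batch 1, with group means removed, Atf3 had r = 0.426 with the 7SL share and 0.383 with the mitochondrial share, and over all libraries but the one dominated by 18S ribosomal RNA 0.228 and 0.158. With ribosomal RNA and 7SL genes removed before scaling, the edgeR adjusted p was 0.000299 for Egr2, 0.00181 for Atf3 and 0.0449 for Egr1. The part of the other differences between these libraries was not tested. Whether the changes of progressors and nonprogressors differ was not tested either.

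In NOR mice no member passed across the 5 ages, against 8.24% of genes, and 1 had an unadjusted p under 0.05 by edgeR. This was Egr1, at 49.9, 53.6, 19.0 and 40.0 CPM at 6 weeks and at 17.5, 21.2, 20.8, 23.8 and 15.5 CPM at 22 weeks (log2 difference -1.03, edgeR adjusted p = 0.0877 over the 5 ages, 0.0184 by DESeq2, which called 1 member). The 6 week library of mouse 4 lay within the range at 22 weeks. Without the library dominated by 18S ribosomal RNA no member passed either, with Egr1 at an edgeR adjusted p of 0.0845, against 13% of genes. Atf3 differed by 0.16 and Egr2 by 0.27 at 22 weeks. The change from 6 to 22 weeks was then compared between nonprogressors and NOR. Most of these mice gave a library at both ages, but the libraries entered as independent and no fit with a term for the mouse was run. No member passed, against 1.23% of genes, while 2 had an unadjusted p under 0.05, Atf3 (0.99, SE 0.33, edgeR adjusted p = 0.105) and Nr4a1 (-1.26, SE 0.55, edgeR adjusted p = 0.239). Without the 22 week library of NOR mouse 4, Atf3 passed (1.14, edgeR adjusted p = 0.0462). This comparison rests on the same nonprogressor libraries of 22 weeks, while those of NOR at 22 weeks had 7SL shares of 5.97% to 10.5% and TMM factors of 0.905 to 0.988. With ribosomal RNA and 7SL genes removed, the values were 0.96 for Atf3 (edgeR adjusted p = 0.111) and -1.29 for Nr4a1 (0.231).

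No member passed between strains or by later outcome. In batch 1, with the libraries of each mouse summed over its times, 9 NOD mice (5 progressors and 4 nonprogressors) were compared with 5 NOR mice. The log2 differences of the members ran from -0.20 to 0.26, and no member passed the edgeR test, against 8.98% of genes. The only unadjusted p under 0.05 was for Egr2, higher in NOD by 0.26 (SE 0.09, edgeR adjusted p = 0.111; 0.0996 without the library dominated by 18S ribosomal RNA). The sums differ in age, since those of progressors hold the times up to onset and those of NOR and nonprogressors hold the ages to 22 weeks. At 6 weeks alone no member passed either, and Egr2 was -0.05 (edgeR adjusted p = 0.936), Atf3 -0.40 (0.285), Nr4a1 0.42 (0.651) and Fosb 0.49 (0.622), each with the sign opposite to that of the sums. At 6 weeks of age, before hyperglycemia, no member passed between progressors and nonprogressors, against 0% of genes by edgeR and by DESeq2, with 985 genes at an unadjusted p under 0.05. The largest value was -0.33 for Egr1 (edgeR adjusted p = 0.891), and only Jun had an unadjusted p under 0.05 (0.17, edgeR adjusted p = 0.891). No member passed for a difference of this contrast between batches, against 0% of genes by edgeR, with 1398 genes and no member at an unadjusted p under 0.05 and 12 genes called by DESeq2.

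The largest log2 difference of a member in any comparison was between the batches. In nonprogressors at 6 and 14 weeks, 7 of 10 members passed the edgeR test, against 47.7% of genes, and all 7 were lower in batch 2, against 23.8%. Most of these mice gave a library at both ages, and the libraries entered as independent. No fit with a term for the mouse or with sums per mouse was run, so the p of this comparison can be too small. At 6 weeks Junb stood at 209 CPM in the lowest, 214 at the median and 222 in the highest of 4 libraries of batch 1, and at 69.1, 79.6 and 92.8 CPM in batch 2. Jun stood at 204, 222 and 264 CPM and then at 98, 113 and 123 CPM, and Ier2 at 19.6, 22.9 and 23.4 CPM and then at 8.88, 9.61 and 10.5 CPM, so none of the 3 overlapped. Their log2 differences were -1.46 (SE 0.08, edgeR adjusted p = 4.02e-12), -1.19 (SE 0.07, edgeR adjusted p = 7.07e-11) and -1.16 (SE 0.09, edgeR adjusted p = 3.46e-09). Dusp1 (-0.84, edgeR adjusted p = 0.000483), Fos (-0.56, 0.00917), Egr2 (-0.33, 0.0410) and Nr4a1 (-0.50, 0.0481) passed by less. Egr1 (-0.46, 0.0509), Fosb (-0.36, 0.273) and Atf3 (-0.09, 0.634) did not pass. When each of the 21 libraries was left out in turn, Egr2 lost its call in 12 cases (edgeR adjusted p up to 0.123) and Nr4a1 in 15, while Egr1 passed in 6. Nr4a1 was -0.20 without nonprogressor mouse 4 at 6 weeks, which held 36.0 CPM. At 14 weeks alone only Jun, Junb, Ier2 and Dusp1 passed.

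Progressor mice 1 to 4 were read in both batches, at different times. Junb stood at 246, 166, 223 and 256 CPM at 6 weeks and at 244, 209, 237 and 183 CPM at 5 weeks before onset, both in batch 1, but at 99.2, 88.0, 106 and 63.7 CPM at 7 weeks before onset, in batch 2. Mice 6, 7, 9 and 10 held 85.2, 59.8, 82.6 and 65.1 CPM at that time, so the libraries of mice 1 to 4 lay among or near those of the other cohort and below all of their own of batch 1 at these times. Jun of mice 1 to 4 stood at 135, 106, 132 and 94.5 CPM at 7 weeks before onset, against 212 CPM or more at 6 weeks and 5 weeks before onset. Ier2 stood at 9.97, 8.85, 9.32 and 7.48 CPM, against 15.2 CPM or more. This is a description of 4 mice and was not tested.

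The 3 members with the largest batch difference share a structure. Jun (chr4:95049034-95052222, minus strand), Junb (chr8:84974484-84978718, minus strand) and Ier2 (chr8:84661331-84662852, minus strand) each have 1 exon in the basic transcript set of GENCODE (GRCm38), while the other 7 have more. The coordinates are those of the gene entry, which for Junb is longer than its 1809 bases of exon in that set. Junb and Ier2 are also the richest in GC of the 10, at 62.6% and 60.9%, and Jun holds 55.5%. Among all protein-coding genes tested, the median batch difference was -0.41 for 515 genes with 1 exon and -0.03 for 14933 with more, and 46.2% and 27.5% were called lower. At a GC of 60% or more it was -1.32 for 91 genes with 1 exon and -0.66 for 739 with more, and under 45% it was 0.16 for 89 and 0.26 for 3421. Of all genes tested, 3.62% were at least as low as Junb, 4.88% as Jun and 5.12% as Ier2. Whether GC, exon number or another property sets the difference was not tested.

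**Figure D5:**
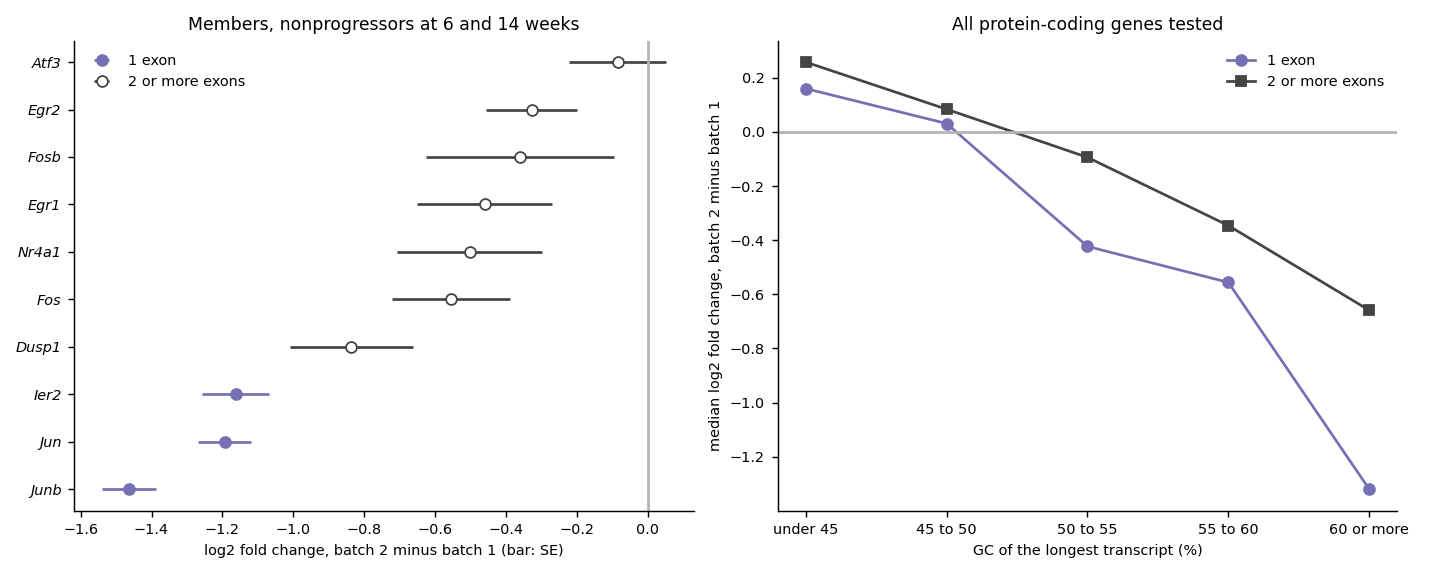
Left, log2 difference of each member between batches in nonprogressors (point, with SE bars), filled where the gene has 1 exon. Right, the median log2 difference over all protein-coding genes tested, by GC of the longest transcript and exon number. Junb, Jun and Ier2 lie at -1.46, -1.19 and -1.16, and the medians fall from 0.26 under 45% GC to -0.66 at 60% or more for genes with 2 or more exons.

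Other immediate early genes, a list of 45 of which 42 were tested, moved unevenly. At onset 18 passed, beside 39.6% of all genes, with 10 higher and 8 lower and a median log2 difference of 0.04 against 0.00 over all genes. Among those higher were Klf10 (0.59), a zinc finger factor, and the antiproliferative gene Btg2 (0.44), and among those lower Nr4a2 (-1.11), a relative of Nr4a1, and Zfp36l1 (-0.77), which promotes mRNA decay. At 7 weeks before onset 10 passed (12.5% of all genes did), 9 of them lower, including the AP-1 subunit Fosl1 (-1.80) and Ier3 (-1.30), with Sgk1 (0.52) higher. From then to onset 4 passed (3.89% of all genes did), with Klf10 (0.38) and Rhob (0.45) higher and Gem (-0.57) lower. Between the batches 30 passed, all lower in batch 2, beside 47.7% of all genes called and 23.8% called lower, with a median of -0.52 and with Cebpb (-2.97) and Jund (-1.90) leading. Between strains 2 of the 42 passed, beside 8.98% of all genes, with Myc higher in NOD (0.26) and Per1 lower (-0.61). For the change with age between nonprogressors and NOR 1 of the 42 passed, Rhob (0.81), beside 1.23% of all genes. Across times, 22 passed in progressors, 14 in nonprogressors and 10 in NOR, beside 35.6%, 34.7% and 8.24% of all genes, and without the library dominated by 18S ribosomal RNA 13 passed in NOR, beside 13%.

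Kinases and factors upstream of the class were also listed. Of 18 tested, 6 passed at onset, beside 39.6% of all genes. The ribosomal S6 kinases Rps6ka1 (0.26) and Rps6ka3 (0.28) were higher. The ETS factor Elk3 (-0.38) and serum response factor, Srf (-0.37), were among 4 lower. Between the batches 14 passed, 7 in each direction, beside 47.7% of all genes. Of 15 AP-1 partners and other bZIP factors, 8 passed at onset, also beside 39.6% of all genes. Batf3 (1.10) was among 3 higher, and Jdp2 (-1.35) and Atf7 (-0.24) were among 5 lower. Some genes, such as Jund and Fosl1, stand in more than 1 list.

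Stress and inflammation genes did not follow 1 direction with the members. Of 12 heat shock genes, 5 passed at onset, all lower, led by Hspa8 (-0.46) and Hsp90ab1 (-0.28). Of 12 acute inflammatory genes, 6 passed, with Tnf (0.73) and its feedback inhibitor Tnfaip3 (0.34) among 3 higher and Ccl3 (-0.74) and Il6 (-0.95) among 3 lower. In NOR mice 7 of 11 acute inflammatory genes differed across ages, beside 8.24% of all genes, and 8 of 11 without the library dominated by 18S ribosomal RNA, beside 13%. These lists were described by their counts, beside the 39.6% of genes called at onset in either direction, with 19.6% called higher.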

How the data were processed

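Ribosomal RNA depleted total RNA of explanted scaffolds was sequenced by the authors on different instruments in the 2 batches. The authors deposited 1 table of expected counts per batch, estimated per gene. The submitters' processing notes name cutadapt, FastQC, STAR, RSEM and MultiQC and build GRCm38, without versions. The tables hold 55492 and 55491 genes, of which 55491 are shared. All columns were mapped to labelled samples. Depth was 4722396 to 56185434 counts in batch 1 (median 30186412.5) and 29029239 to 43880986 in batch 2 (median 36440355.5), and intervals of single counts would cover counting error only.

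Rounded counts were filtered with filterByExpr, scaled by TMM and tested with the edgeR 4.0.16 quasi-likelihood test in R 4.3.3, with batch as a term where both batches entered, and Benjamini-Hochberg adjustment over all genes tested (threshold 0.05). The comparison of progressors with nonprogressors and that of progressors at onset with their youngest age were first tried on simulated data. The other fits were not tried in that way. Progressor times were fitted on all progressor libraries, nonprogressor and NOR ages on their own libraries, and the strain comparison on 1 summed library per mouse. Covariation used log2 CPM with a prior count of 2, in Python 3.11.15 with numpy 2.4.6 and scipy 1.17.1, over genes with a mean of at least 1 CPM. Exon number, GC and gene coordinates came from the basic transcript set of GENCODE (GRCm38), and promoters from RefSeq (GRCm38.p6).

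Libraries of 1 mouse share that mouse by the labels, so the pairing was tried as an alternative with a term for each mouse. This was done for progressor times and for nonprogressor and NOR ages. It was not done between the batches or for the change with age between nonprogressors and NOR. The correlation of deviations within a mouse was -0.000481 over 42 pairs in NOR, 0.011 over 46 in nonprogressors and -0.0102 over 140 in progressors. No 2 libraries of a group agreed within sampling noise (over 239 pairs, chi-square divided by its degrees of freedom was at least 11.97). Other alternatives were DESeq2 1.42.0, no filter on low counts, ribosomal RNA and 7SL genes removed, no batch term, single batches or ages, and leaving out each mouse or library.

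The members and gene lists were chosen with earlier results of these data known. All 10 members are named. Other genes named are the 10 closest to the mean of the members, the 2 closest to each member, and from each list, of the genes called, up to 2 that rose and 2 that fell with the lowest p, except for a gene that is not reported here.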

Additional observations from a re-analysis of the deposited data

Results flagged for a closer look

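In groups of 4 to 10 libraries, 9 of 230 combinations of a member and a group held a library that stood far from the others by Dixon's test at its 95% level, which chance alone passes in about 5% of groups. No explanation was tested for any of them. Fosb gave 3, the low NOR mouse 4 at 6 weeks (4.59 CPM against 11.9 in the nearest library, gap over range 0.888), the high NOR mouse 2 at 10 weeks (46.7 against 6.81 CPM, 0.718) and the high nonprogressor mouse 2 at 18 weeks (11.0 against 5.92 CPM, 0.882). Nr4a1 gave 3, the high nonprogressor mouse 4 at 6 weeks in batch 1 (36.0 against 14.2 CPM, 0.835), the low progressor mouse 9 at 7 weeks before onset (6.44 against 9.12 CPM, 0.691) and the high progressor mouse 8 at 5 weeks before onset in batch 2 (13 against 8.28 CPM, 0.792). The other 3 were Jun in NOR mouse 2 at 6 weeks (211 against 254 CPM, 0.946), Ier2 in nonprogressor mouse 2 at 6 weeks in batch 1 (19.6 against 22.9 CPM, 0.874) and Egr2 in nonprogressor mouse 3 at 18 weeks (94.0 against 109 CPM, 0.846), all low.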

How the results depend on the processing

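With libraries entered singly, 1 member (Egr2) passed between strains, against 0. With no batch term, 5 passed at 7 weeks before onset against 6 weeks and 3 from then to onset. In the latter comparison 0 passed with no filter on low counts, and 0 with the mouse as a replicate block, in both batches or in batch 2 alone. Batch 2 alone with the block, chosen after seeing the data, left 2 members across the progressor times. With the block, Egr1 also lost its call at onset (2 members passed), and no other call of a member in both batches changed. In batch 1 alone 1 member passed at onset, DESeq2 called 1 across NOR ages, and 4 passed between the batches at 14 weeks alone, where Nr4a1 turned to a log2 difference of 0.01985.

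Leaving out in turn each mouse, or each library for the last 2 counts (21 between batches, and those of 6 and 22 weeks for the change with age), gave 0 to 1 members between strains (Egr2 without nonprogressor mouse 4, adjusted p = 0.0487), 3 to 4 across progressor times, 0 to 1 at 7 weeks before onset (Fosb without mouse 1, Atf3 without mouse 7), 0 to 2 from then to onset (Atf3 passed without mouse 8), 2 to 4 at onset (Ier2 passed without mouse 7, at edgeR adjusted p = 0.0305), 2 to 3 across nonprogressor ages (Fosb passed without mouse 2), 5 to 8 between batches and 0 to 1 for the change with age between nonprogressors and NOR. The last 2 sets were chosen after seeing the data.

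Without TMM the median r over pairs was 0.519, Egr1 with Atf3 turned to 0.178 and Atf3 with Nr4a1 to 0.044. Once the 18 week library of NOR mouse 5 was also left out, an alternative chosen after seeing the data, these were 0.235, -0.366 and -0.594.

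Counts over all genes moved by more than 1.5 times in these cases. Between strains 403 genes passed at 6 weeks alone, against 2101. Across progressor times 4625 passed in batch 2 with the block, against 7574. At 7 weeks before onset 883 passed with the block and 4077 in batch 2 alone, against 2670, with 1475 to 2932 leaving out mice. From then to onset 0 passed with the block, 2157 with no batch term, 1352 in batch 2 alone and 17 there with the block, against 828, with 161 to 1509 leaving out mice. At onset 3549 passed in batch 1 alone, against 8421. Across NOR ages DESeq2 called 3228 and 2601 passed without the 18 week library of mouse 5, against 1617, with 481 to 1488 leaving out mice. Across nonprogressor ages 2672 passed in batch 1 alone, against 7334, and between batches 6084 at 14 weeks alone, against 10045. For the change with age between nonprogressors and NOR, DESeq2 called 815 and 120 passed with no filter, against 254, with 29 to 574 leaving out libraries. DESeq2 called 12 genes for progression by batch, against 0. Where a count moved, the cause was not tested. Depth limits the members with the lowest counts most, and in 1 library Nr4a1, Egr1 and Fosb fell to 15, 22 and 23.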
